A study of Neogale vison with 6 samples.

Results

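A group of 9 genes was examined whose products carry cholesterol into, through and out of the free pool of the cell: the receptors VLDLR and SCARB1, the lysosomal proteins NPC1, NPC2 and LIPA, the sterol-pathway membrane protein TMEM97, and the esterifying enzymes SOAT1, SOAT2 and LCAT. The members were fixed by gene symbol, and each of the 9 symbols stood once among the 24526 genes of the count table. Their Ensembl identifiers there were ENSNVIG00000008014 (VLDLR), ENSNVIG00000021758 (SCARB1), ENSNVIG00000018281 (NPC1), ENSNVIG00000016016 (NPC2), ENSNVIG00000024385 (LIPA), ENSNVIG00000017794 (TMEM97), ENSNVIG00000009044 (SOAT1), ENSNVIG00000000039 (SOAT2) and ENSNVIG00000009226 (LCAT). They were followed in Mv1Lu, an epithelial line from mink lung, in 6 libraries, of which 3 came from cells left untreated (control) and 3 from cells after cholesterol depletion (CD). The CD cells had been kept for 16 h with the statin lovastatin at 50 μM and mevalonate at 50 μM, in medium holding 10% lipoprotein-deficient serum (LPDS), whereas the control cells received none of these. Since statin, mevalonate and serum changed together, their parts cannot be told apart. The labels do not say whether the 3 libraries of a group came from separate cultures, so the p-values measure the spread between these libraries only.

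A cell gets cholesterol by making it or by taking up lipoproteins. Lipoprotein particles bound by surface receptors are carried to lysosomes, where the acid lipase LIPA splits the cholesteryl esters, and the freed cholesterol is passed by the small luminal protein NPC2 to the membrane protein NPC1, which moves it out of the lysosome. Surplus cholesterol is turned into esters for storage in the endoplasmic reticulum by SOAT1 and SOAT2, and in plasma by the secreted enzyme LCAT. When membrane sterol falls, transcription factors of the SREBP family are released and raise genes of sterol synthesis and uptake, while statins block the synthesis at HMG-CoA reductase and LPDS withholds the lipoproteins. The question asked here was how the RNAs of the uptake, export and storage steps stood in CD cells relative to control cells.

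All 9 genes were tested, 8 with enough reads in both groups and SOAT2 through its CD libraries alone, and the response was divided. VLDLR, SOAT2, NPC2 and LCAT were higher in CD, LIPA, SOAT1 and TMEM97 were lower, and NPC1 and SCARB1 did not pass the threshold. The increases of VLDLR (5.13-fold) and SOAT2 (5.82-fold) were the largest of the 9, and the changes of the other called genes lay between a fall by 47.3% for LIPA and an increase of 47.1% for NPC2. A gene was called when its Benjamini-Hochberg false discovery rate (FDR) was under 0.05 in edgeR's quasi-likelihood test, fitted over all 12148 genes with enough counts. The CD treatment changed a large part of the transcriptome, with 47.7% of the tested genes called, 24.8% as higher and 22.9% as lower, so that 7 calls among 9 genes have to be read against that share. In 7 of the 9 genes the 3 CD libraries lay wholly above or wholly below the 3 control libraries, as they did in 58.0% of the tested genes. The median log2 fold change was 0.43 over the 9 genes and 0.057 over all tested genes.

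Reads counted on genes numbered between 13473820 and 18633764 per library. Reads that fell on no gene for any reason (unmapped, multimapped, outside genes or ambiguous) made up 29.3% to 47.2% of a control library and 31.1% to 41.4% of a CD library. Control replicates 1 and 2 stood apart in their unmapped reads, with 18.4% and 13.6%, against 4.25% in control replicate 3 and 3.54% to 9.37% in CD. CD replicate 3 also stood apart from the other CD libraries, with 25.4% of its reads outside annotated genes (21.9% and 21.6% in CD replicates 1 and 2) and 15884 genes with at least 1 read (15109 and 15059). It was the lowest CD library for 41.0% of the tested genes and the highest for 40.1%, so results that rest on it are given with and without it. Of the epithelial markers, KRT19 was abundant (936 CPM in control), whereas EPCAM, CDH1 and CLDN7 were each under 1 CPM in both groups. The summed level of 6 epithelial markers, nearly all of it KRT19, was 885–1012 CPM in the control libraries and 386–541 CPM in CD. By contrast, CLDN4 rose from 0.603 to 7.03 CPM (log2 fold change 3.55, FDR 9.61e-06, edgeR). CLDN4 had 7, 12 and 8 reads in control and entered the test through its CD libraries, so this call is no support. The sum of 6 fibroblast markers, nearly all of it from COL1A2, COL3A1 and COL1A1, was 303–379 and 179–228 CPM, whereas LUM had 1, 2 and 4 reads in control and 9, 14 and 12 in CD, and DCN 0, 1 and 2 against 1, 8 and 6. That of 5 endothelial markers, nearly all of it TEK, was 206–221 and 75.9–124 CPM, whereas VWF, with 2, 0 and 3 reads in control and 15, 27 and 14 in CD, was higher (3.38, FDR 8.82e-04, edgeR) and PECAM1 had 0 reads in control and 4, 5 and 2 in CD. VWF had enough reads for the test in its CD libraries alone, so its call is no support. The sum of 4 leukocyte markers was 5.57–6.67 CPM in control and 21.1–26.0 CPM in CD. The part of these shifts in the results for the 9 genes was not tested. Fewer cells with a transcript and less RNA per cell cannot be told apart in such bulk libraries.

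**Figure D1:**
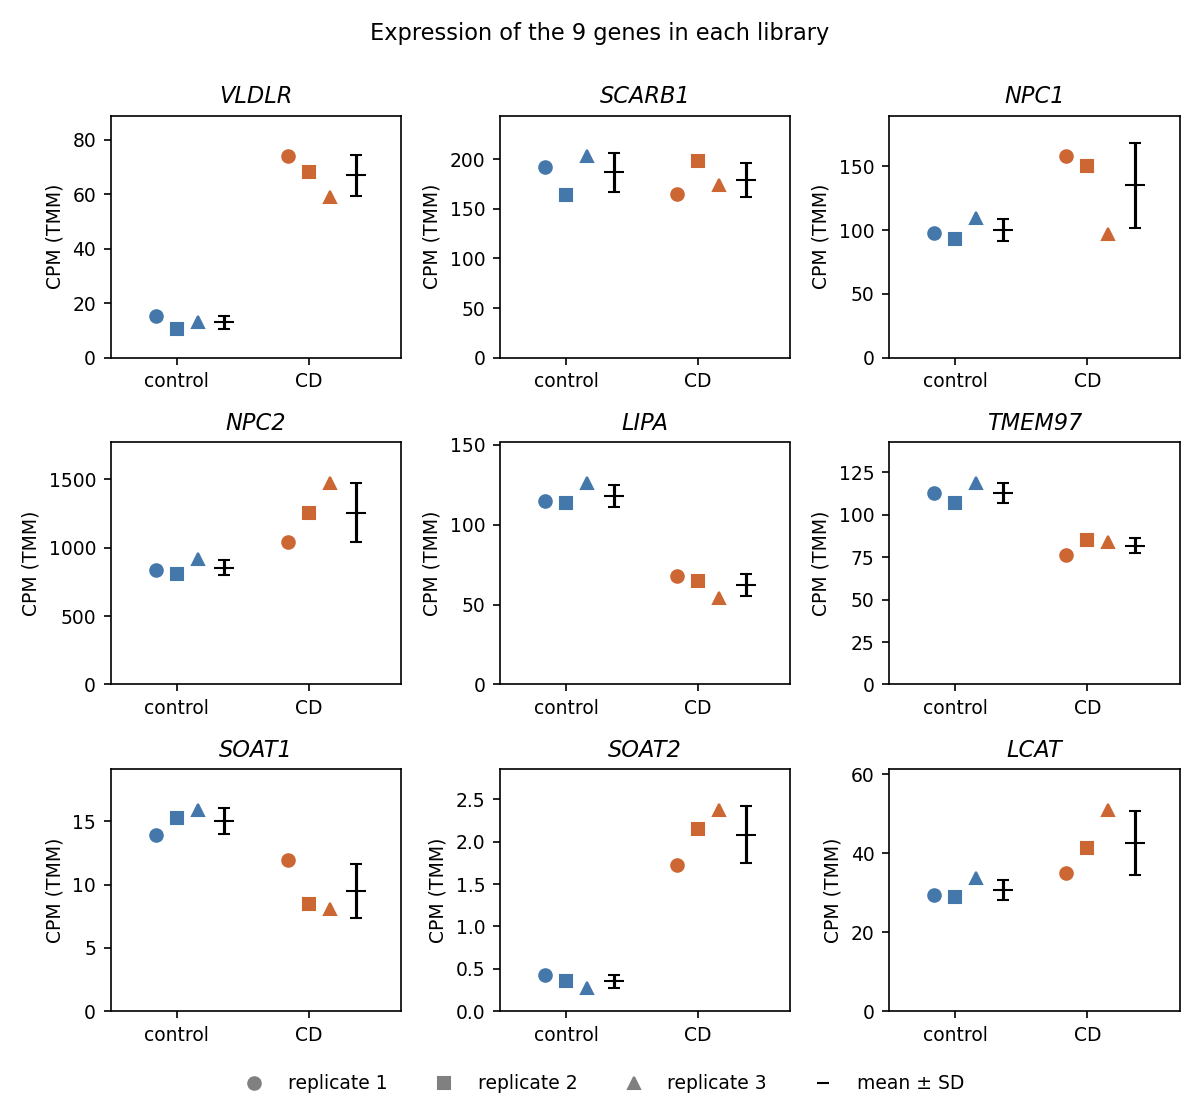
Expression of each of the 9 genes in the 6 libraries, as CPM (read counts scaled to a common library size with TMM, vertical axis from 0). Blue symbols are control and orange symbols CD libraries, the shape gives the replicate number, and the black mark is the mean ± SD of 3 libraries. The groups are apart for 7 genes and overlap for SCARB1 and NPC1, where CD replicate 3, at 96.6 CPM, lies among the control values.

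Of the receptors, VLDLR rose and SCARB1 did not pass the threshold. VLDLR binds triglyceride-rich lipoproteins carrying apolipoprotein E and takes them up by endocytosis. Its levels, given like all levels here as CPM (read counts scaled to a common library size with TMM), were 15.4, 10.7 and 13.1 in control replicates 1, 2 and 3. In CD replicates 1, 2 and 3 they were 74.0, 68.0 and 59.0. Each CD library thus held several times the highest control value, and the CD libraries differed from each other by little (coefficient of variation 11.3%, against 18.0% in control). On the log2 scale the increase was 2.36 ± 0.17 (± standard error, also for the fold changes of the genes that follow, FDR 3.55e-06, edgeR), and 3.30% of all tested genes changed by a larger amount in either direction. VLDLR was called under each of 14 alternative settings, with log2 fold changes from 2.23 to 2.49.

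SCARB1 encodes the scavenger receptor that takes up cholesteryl esters from high-density lipoprotein without internalizing the particle. It was at 192, 164 and 203 CPM in the control libraries. In the CD libraries it was at 165, 199 and 174 CPM. The groups overlapped fully, and the log2 fold change was -0.059 with a 95% interval from -0.34 to 0.22 (FDR 0.72, edgeR), and changes within this interval are not excluded. The gene was called under none of the 14 alternative settings.

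On a list of 29 receptors, adaptors and regulators of uptake, 26 were found by symbol and 19 were tested, of which 3 were higher and 7 lower (edgeR, FDR under 0.05), with a median log2 fold change of -0.50. Over all tested genes 24.8% were higher and 22.9% lower, so that the 10 calls among 19 genes are a share near the 47.7% of the whole table. Besides VLDLR, the higher genes were LRP10 (log2 fold change 0.44, FDR 0.0110) and the oxidized-lipoprotein receptor OLR1 (2.59, FDR 9.17e-04), which had a low level of 0.362 ± 0.126 CPM in control and 2.23 ± 1.02 CPM in CD (SD, n = 3). LRP10 was not called without control replicate 2 (FDR 0.0604, edgeR) or CD replicate 2 (FDR 0.0712). OLR1 reached the count filter in the CD libraries alone, so it could be tested only because it was high there. DAB2, a clathrin adaptor that links receptors of this family to coated pits, fell by 2.49 on the log2 scale (from 39.5 ± 4.26 to 7.02 ± 0.969 CPM). SORL1, a sorting receptor with lipoprotein-binding repeats, had a log2 fold change of -1.91, CUBN, the endocytic receptor cubilin, one of -1.65, and LRP5, a Wnt co-receptor of the same family, one of -0.82. LRPAP1, the chaperone that keeps receptors of this family from binding ligands too early, was at -0.54. MYLIP, the ubiquitin ligase that sends lipoprotein receptors to degradation, fell from 9.79 ± 0.668 to 4.21 ± 0.886 CPM (log2 fold change -1.21, FDR 9.28e-04, edgeR).

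CD replicate 3 was the lowest CD library for 14 of the 19 tested uptake genes. When it was left out, 6 of them were called higher in place of 3, among them the large endocytic receptor LRP1 (log2 fold change 0.65, FDR 1.00e-05, edgeR) and LRP12 (0.54, FDR 0.00294), and 8 were called lower in place of 7. The calls over all genes rose as well, to 29.3% higher and 29.2% lower of 12330 tested genes. With all libraries, LRP1 stood at 0.39 (FDR 0.28) and LRP12 at 0.40 (FDR 0.15). Without CD replicate 1 they stood at 0.14 (FDR 0.67) and 0.18 (FDR 0.45), and 4 uptake genes were called higher and 10 lower, with 25.1% and 23.5% over all tested genes. VLDLR was called in both cases, at a log2 fold change of 2.41 when CD replicate 3 was left out and 2.29 when CD replicate 1 was.

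The genes of lysosomal release and export went different ways: LIPA fell, NPC2 rose, and NPC1 was high in CD replicates 1 and 2 only. LIPA, whose protein frees cholesterol from the esters of lipoproteins taken up, was at 115, 114 and 126 CPM in control replicates 1, 2 and 3. It was at 67.7, 64.8 and 54.2 CPM in CD replicates 1, 2 and 3. The highest CD value stayed well under the lowest control value. The log2 fold change of LIPA was -0.93 (standard error 0.12, FDR 2.08e-04, edgeR), and the gene was called under all 14 alternative settings, with values from -0.99 to -0.87.

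NPC2 binds single cholesterol molecules in the lysosomal lumen. Its control libraries held 839, 808 and 915 CPM. Its CD libraries held 1040, 1256 and 1473 CPM. Every CD value exceeded every control value, but the CD libraries were spread (coefficient of variation 17.2%, against 6.45% in control), with the highest value in CD replicate 3. The increase of NPC2 was 0.56 ± 0.15 in log2 (FDR 0.0104, edgeR). It was called in 12 of 14 alternative settings, and the exceptions, without control replicate 1 or 2, had an FDR of 0.0506 and 0.0522. Leaving out CD replicate 3 lowered it to 0.39 (FDR 0.00346).

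NPC1, the transporter of the lysosomal membrane, had control values of 97.9, 92.8 and 109 CPM. In CD the values were 158, 150 and 96.6 CPM. CD replicates 1 and 2 were above all controls, whereas CD replicate 3 was below the mean of the controls, so that the groups overlapped. In log2 terms CD exceeded control by 0.43 ± 0.18, with a 95% interval from 0.037 to 0.83, at an unadjusted p of 0.0352 and an FDR of 0.0683 (edgeR). Of 14 alternative settings, the omission of CD replicate 3 was the one in which NPC1 was called (log2 fold change 0.59, FDR 5.11e-06). In the RefSeq annotation of another mink assembly (ASM_NN_V1), NPC1 overlaps RMC1, a gene of late endosomes that was looked at after its position had been seen. RMC1 rose from 34.7 ± 1.13 to 70.0 ± 1.65 CPM (log2 fold change 1.01, FDR 6.28e-05, edgeR) with CD replicate 3 at 68.3 CPM, close to the other CD libraries. How the counting treated reads shared by both genes was not stated.

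**Figure D2:**
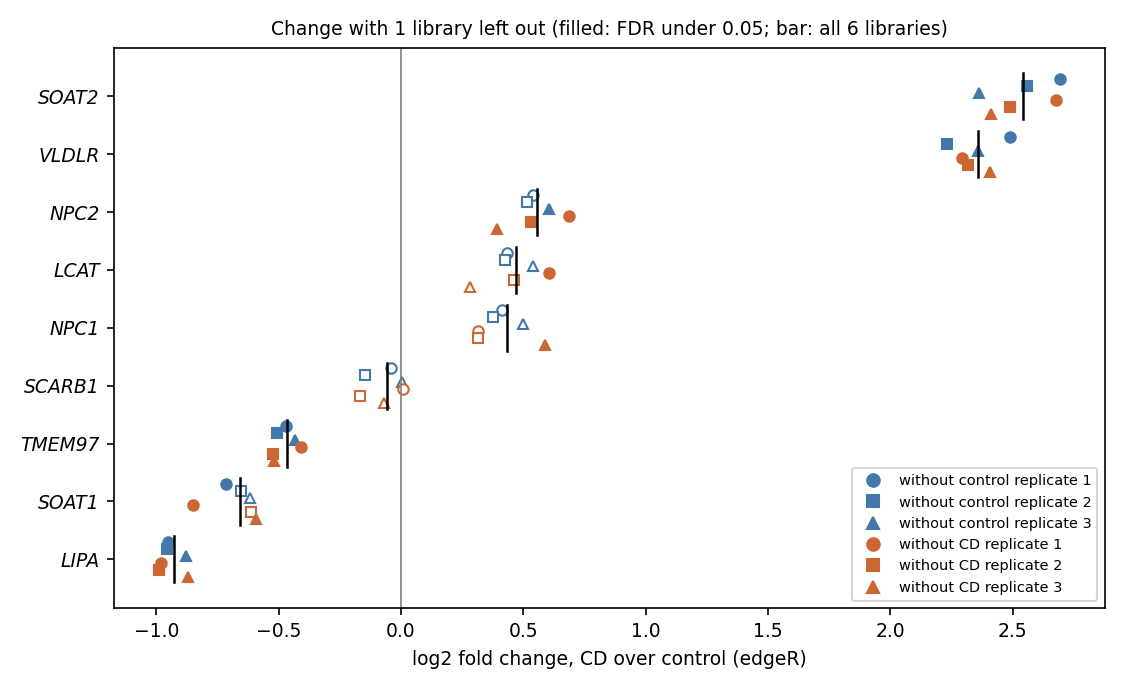
Log2 fold change of each of the 9 genes (horizontal axis) with 1 library left out in turn. Filled symbols passed the edgeR threshold, open ones did not, and the black bars are the values with all 6 libraries. NPC1 was called in the test without CD replicate 3 alone, LCAT in the one without CD replicate 1 alone, and VLDLR, LIPA and TMEM97 in each of the 6. SOAT2, also filled throughout, entered the test through its CD libraries.

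NPC1 and NPC2 work in sequence, and their counts were therefore also set against each other within each library, where scaling between libraries plays no part. NPC1 counts amounted to 11.7%, 11.5% and 12.0% of the NPC2 counts in control replicates 1, 2 and 3, which is a narrow range. In CD replicates 1, 2 and 3 they amounted to 15.2%, 12.0% and 6.56%, so that the CD libraries lay on both sides of the control. The log2 ratio was -3.09 ± 0.0293 in control and -3.24 ± 0.62 in CD (SD, n = 3; exact permutation test, two-sided p = 1). These shares are of read counts and are not corrected for transcript length. The difference of the log2 ratios, -0.14, changed sign to 0.20 without CD replicate 3.

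A wider list of 18 genes of lysosomal and late endosomal sterol handling had 14 tested members, of which 9 were higher and 1, LIPA, was lower (edgeR, FDR under 0.05). The list is mixed. It also holds sterol carriers not confined to lysosomes, such as STARD4 and GRAMD1A, so its counts are not of lysosomal genes alone. Its median log2 fold change was 0.38, against shares of 24.8% higher and 22.9% lower and a median of 0.057 over all tested genes. The sterol carriers of the START family had some of the largest increases. STARD5 rose from 20.8 ± 1.46 to 98.4 ± 15.8 CPM (log2 fold change 2.24, FDR 2.45e-06, edgeR), and STARD4, which shuttles cholesterol between membranes, from 1.47 ± 0.302 to 4.47 ± 1.32 CPM (1.59, FDR 0.00120). STARD3NL, an endosomal tether, was at 0.81 and GRAMD1A, which moves cholesterol from the plasma membrane to the endoplasmic reticulum, at 0.55. PTCHD1, a protein with a patched domain, was at 1.95 with a level of no more than 2.78 ± 0.845 CPM in CD, and it passed the count filter through the CD libraries. The smallest called increases belonged to SMPD1, the acid sphingomyelinase (0.33), SCARB2, a lysosomal membrane receptor (0.31), and LAMP2 (0.29), and these calls were made in 6, 5 and 5 of 14 alternative settings. With the replicate number as a block, none of these 3 genes was called and 6 genes of the list were higher in place of 9. Of all 12148 tested genes 2772 were higher with the block, against 3016 without it. LAMP1, OSBP and OSBPL1A were not called, with log2 fold changes of 0.072, 0.0088 and -0.015. Without control replicate 1 or 2, 5 genes of this list were called higher in place of 9, and the share of all tested genes called higher fell as well, to 18.4% and 19.4%.

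TMEM97, also known as the sigma-2 receptor, is a membrane protein of the endoplasmic reticulum that binds NPC1 and is counted among the genes that SREBPs raise. Its control values were 113, 107 and 119 CPM. Its CD values were 76.5, 84.8 and 83.7 CPM, so that the groups were clearly apart and each was narrow (coefficients of variation 5.15% and 5.51%). TMEM97 changed by -0.47 ± 0.11 in log2 (FDR 0.00558, edgeR), and the call held under all 14 alternative settings, with values from -0.52 to -0.41. Sterol-responsive reference genes, of the synthesis pathway and its control, moved the other way in the same libraries. The 5 that were tested of a list of 6 were all higher, with a median log2 fold change of 2.10, where 24.8% of all tested genes were higher. They were chosen with earlier results of these data known, so their common direction is no test. INSIG1, which holds SREBPs back in the endoplasmic reticulum, had a log2 fold change of 1.67, IDI1 (isopentenyl diphosphate isomerase) one of 2.10, FDFT1 (squalene synthase) one of 2.17 and HMGCS1 (HMG-CoA synthase) one of 3.43. The related protein TM6SF1 (0.73, FDR 0.0125) and PGRMC2 (0.41, FDR 0.0182), of the progesterone receptor membrane component family, were higher in CD. PGRMC2 was called in 9 of 14 alternative settings, not with the replicate block (FDR 0.0699, edgeR) nor without control replicate 1, 2 or 3 or CD replicate 2, and TM6SF1 was not called without control replicate 3 (FDR 0.0709).

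**Figure D3:**
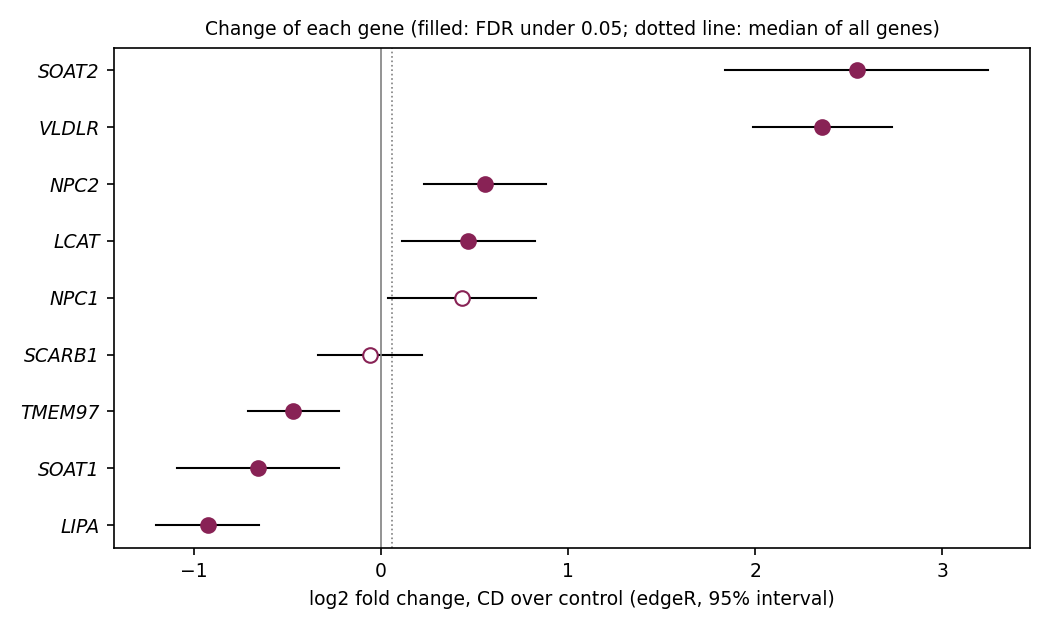
Log2 fold change of CD over control for the 9 genes (horizontal axis), with 95% intervals from the edgeR fit. Filled circles were called at an FDR under 0.05, and the dotted line marks the median of all tested genes (0.057). SOAT2 and VLDLR lie above 2, the intervals of LIPA, SOAT1 and TMEM97 lie below 0, and the open circles are NPC1 and SCARB1.

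The esterifying enzymes of the cell moved in opposite directions, SOAT1 down and SOAT2 up. SOAT1 is the form found in most tissues and SOAT2 that of intestine and liver. SOAT1 was at 13.9, 15.3 and 15.9 CPM in control replicates 1, 2 and 3. It was at 12.0, 8.47 and 8.07 CPM in CD replicates 1, 2 and 3. The groups did not overlap, although CD replicate 1 lay nearer to the controls than to the other CD libraries. SOAT1 changed by -0.66 ± 0.19 in log2 (FDR 0.0180, edgeR). In 3 of 14 alternative settings, without control replicate 2 or 3 or CD replicate 2, SOAT1 was not called (FDR 0.0602, 0.0748 and 0.0538).

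SOAT2 was a rare transcript in both groups, and it reached the count filter (0.669 CPM before TMM scaling) in the 3 CD libraries and in none of the control libraries. A gene that enters the test in this way had to be higher in CD, so its call under that filter is no support. The 3 control libraries held 6, 5 and 5 reads, or 0.430, 0.361 and 0.275 CPM. The CD libraries held 28, 35 and 33 reads, or 1.72, 2.15 and 2.38 CPM. The lowest CD value was a multiple of the highest control value. The fitted log2 fold change was 2.54 (standard error 0.32, FDR 1.27e-04, edgeR). Summed over libraries, the 16 reads of control and 96 reads of CD gave a ratio of 5.93 after scaling by library size, with a 95% Clopper-Pearson interval of 3.47 to 10.8 that covers counting error only. With no filter on low counts, where its entry into the test did not depend on the CD libraries, the log2 fold change was 2.54 (FDR 5.32e-06, edgeR). A minimum of 50 counts removed the gene.

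Set against each other within a library, SOAT2 counts were 3.09%, 2.37% and 1.73% of the SOAT1 counts in control. In CD they were 14.4%, 25.4% and 29.5%. SOAT1 thus had more reads than SOAT2 in all 6 libraries, but every CD ratio lay above every control ratio. That separation follows from SOAT2 lying above and SOAT1 below control in each CD library. The ratio and its p-value are therefore a description and no further support. The log2 ratio was -5.30 ± 0.41 in control and -2.16 ± 0.54 in CD (SD, n = 3), a difference of 3.13 or 8.77-fold (p = 0.1 in a two-sided exact permutation test, the lowest value possible with 3 libraries against 3). With each library left out, the difference stayed between 2.92 and 3.44. These are again shares of reads, without correction for transcript length.

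**Figure D4:**
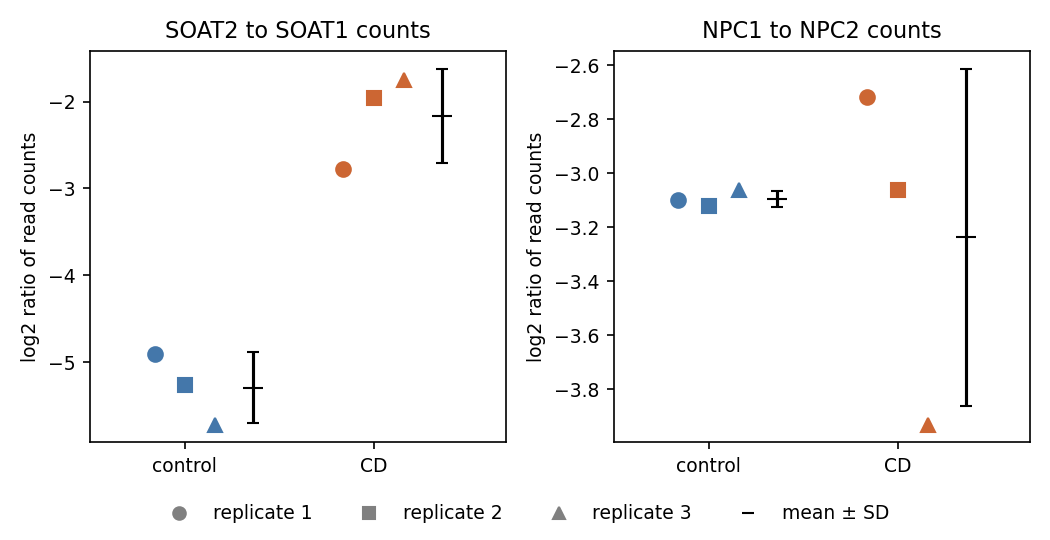
Log2 ratio of read counts within each library (vertical axes, which do not start at 0), for SOAT2 to SOAT1 on the left and NPC1 to NPC2 on the right, with replicates by symbol shape and the mean ± SD of 3 libraries in black. The SOAT2 to SOAT1 ratios of CD, from -2.78 to -1.75, lie above those of control, from -5.72 to -4.90. The NPC1 to NPC2 ratios of CD, from -3.93 to -2.72, lie on both sides of the control.

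LCAT, which esterifies cholesterol on lipoproteins in plasma, was at 29.3, 29.0 and 33.7 CPM in control. It was at 35.0, 41.4 and 51.0 CPM in CD. The lowest CD value was close to the highest control value, and CD replicate 3 was the highest. LCAT was higher by 0.47 ± 0.16 in log2, with a 95% interval from 0.11 to 0.83 (FDR 0.0349, edgeR). LCAT was called in the 8 settings that kept all libraries, but in 1 of the 6 that left out a library, the one without CD replicate 1, and omitting CD replicate 3 brought the change to 0.28 (FDR 0.0614). LCAT, SOAT1, SOAT2 and TMEM97 had been shown by the study in a panel of cholesterol genes selected on these libraries, so their calls are not independent evidence of direction.

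Of the wider list of esterification and ester hydrolysis, with 16 genes, 11 were found and 8 tested, 4 of them higher, SOAT2 included, and 2 lower (edgeR, FDR under 0.05; median log2 fold change 0.45). The shares over all tested genes were 24.8% and 22.9%, and 2 lower genes of 8 are a share near that background. Besides SOAT2 and LCAT, the higher genes were DGAT2, which makes triglycerides (from 2.36 ± 0.557 to 8.35 ± 0.211 CPM, log2 fold change 1.80), and LIPE, the hormone-sensitive lipase, which also splits cholesteryl esters (from 29.7 ± 2.81 to 65.0 ± 6.42 CPM, 1.13). NCEH1, a neutral cholesteryl ester hydrolase, fell with SOAT1, from 71.4 ± 3.97 to 34.8 ± 5.85 CPM (log2 fold change -1.03, FDR 2.56e-04, edgeR). The hydrolases of cholesteryl esters that were tested thus comprised LIPA and NCEH1, both lower, and LIPE, higher. APOE and PLTP, at 0.917 ± 0.0746 and 5.17 ± 1.16 CPM in control, were not called (log2 fold changes 0.43 and 0.35).

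**Figure D5:**
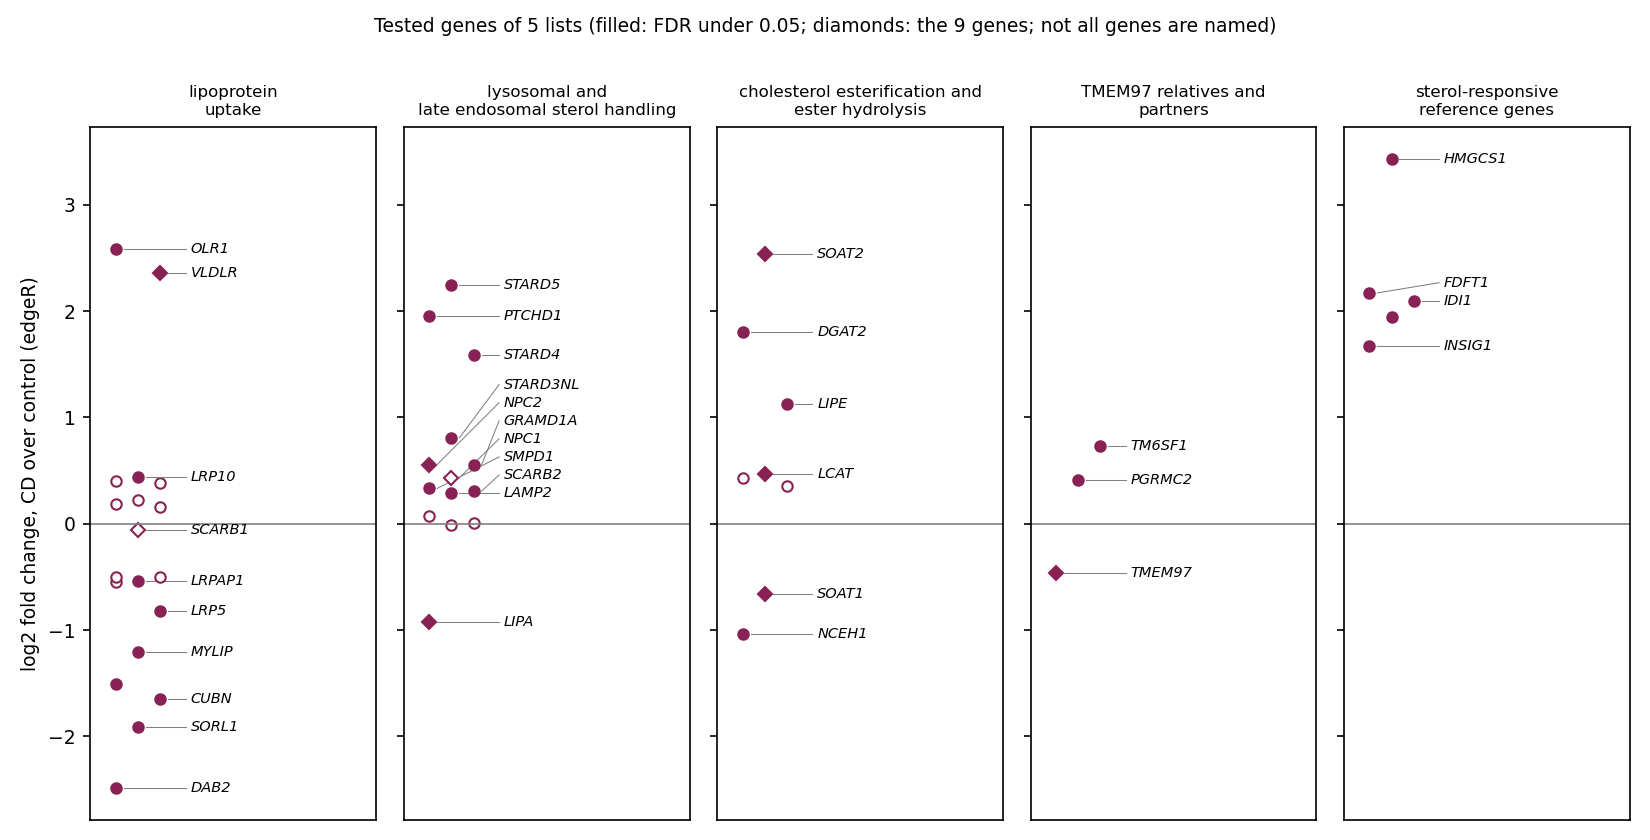
Log2 fold change of CD over control (vertical axis) for the tested genes of 5 lists, spread sideways for legibility and not all named. Diamonds are the 9 genes and circles other list genes, and filled symbols passed the edgeR threshold (FDR under 0.05). The uptake list has 3 called genes above and 7 below 0, the lysosomal list 9 above and 1 below, and the 5 sterol-responsive reference genes are all above.

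The 9 genes also differed in how the CD libraries were arranged. CD replicate 3 was the lowest CD library for VLDLR, NPC1, LIPA and SOAT1 and the highest for NPC2, SOAT2 and LCAT. For NPC1, the log2 level of CD replicate 3 differed from the mean of the CD libraries by -0.45, the widest such gap among the 9 genes, and for LCAT by 0.28. For SCARB1 and TMEM97 it was between the other CD libraries. Likeness between genes over the 6 values was measured by the root mean square difference of log2 CPM after subtracting each gene's control mean. For each called gene, the most similar tested gene with a symbol was sought. These were LRRC75A for VLDLR (difference 0.0889), NBL1 for NPC2 (0.0267), SEPTIN11 for LIPA (0.0349), SCRIB for TMEM97 (0.0141), CDK6 for SOAT1 (0.0754), TMEM270 for SOAT2 (0.16) and CDK5 for LCAT (0.0512). The match is a description over 6 libraries only.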

How the data were processed

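Poly(A) RNA was sequenced by the authors from 3 control and 3 CD samples of Mv1Lu cells. Per the labels and the paper's methods, reads were trimmed with fastp 0.20.1, aligned with STAR 2.7.2a to mink assembly NNQGG.v01, and compared with DESeq2 1.30.1 in R 4.0.3. The counting program and its strand setting are not given in the sources used here, so overlapping genes are uncertain. The authors deposited raw counts per gene. Their normalized values per library were not used here, because the gene identifiers beside them follow another order than the values. Rows of read totals were left out.

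Here the counts were tested with edgeR 4.0.16 in R 4.3.3 (filterByExpr with a minimum count of 10 and a minimum total of 15, TMM, robust glmQLFit and glmQLFTest, condition as the only term). The standard error is the log2 fold change divided by the square root of F, and the median over the tested genes was 0.18. Count ratios within libraries used a pseudocount of 0.5 in log2. The functions were checked on data drawn from the real means in which few genes were changed. That check does not cover scaling or error rates where a large part of the genes changes, as here. The alternatives were DESeq2 1.42.0, limma-voom (limma 3.58.1), other scalings, no filter, a stricter filter (50 counts in at least 3 libraries), a block for the replicate number, and each library left out, 14 settings in all.

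The 9 genes, the lists and the naming rule were chosen with earlier results of these data known. The rule took all 9 genes, the called genes of each list (the 4 highest and 4 lowest where more than 8 were called), the reference genes and the nearest patterns. RMC1, LRP1, LRP12, LRP5, MYLIP, GRAMD1A and the list genes that were not called fall outside it and were named after their values were seen. Some list and marker genes are counted but not reported here by name. List genes were matched by symbol. All 9 genes were found by symbol in RefSeq's table of assembly ASM_NN_V1, which differs from the authors' assembly, so no coordinates, lengths or sequences are given.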

Additional observations from a re-analysis of the deposited data

How the results depend on the processing

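Of the 9 genes, VLDLR, LIPA and TMEM97 were called under each of the 14 alternatives, and no change of tool, scaling or filter altered any of the 9 calls, except that a minimum of 50 counts removed SOAT2. All losses came from leaving out 1 library, which also lowers the number of libraries. The log2 fold changes then ranged from 2.23 to 2.49 for VLDLR, 2.36 to 2.69 for SOAT2, -0.99 to -0.87 for LIPA, -0.52 to -0.41 for TMEM97, 0.39 to 0.69 for NPC2, 0.31 to 0.59 for NPC1, -0.85 to -0.59 for SOAT1 and 0.28 to 0.60 for LCAT. For SCARB1 the range was -0.17 to 0.0082, and its sign turned without control replicate 3 (0.0046) and without CD replicate 1 (0.0082), neither being called. The difference in the log2 ratio of NPC1 to NPC2 ranged from -0.40 to 0.20, the latter without CD replicate 3. Among the 9 genes 2 to 4 were then called higher and 2 to 3 lower. The calls over all tested genes moved as well in these fits. They were fewest without control replicate 3, with 2216 higher and 2194 lower of 12297 genes. Without CD replicate 3 they were most frequent, with 3616 higher and 3606 lower of 12330 genes. For the lists, the numbers of higher genes ranged from 2 to 6 for uptake, 5 to 9 for lysosomal handling and 0 to 2 for the relatives of TMEM97, and the number of lower genes from 1 to 2 for esterification. The same-numbered libraries did not deviate together (correlations of -0.028, -0.29 and -0.18 across genes), so the numbers pair nothing known. With the replicate block the 7 calls were kept, and 1 relative of TMEM97 was called higher in place of 2. In the lysosomal list 6 genes were called higher in place of 9 (SCARB2, LAMP2 and SMPD1 were lost, at an edgeR FDR of 0.112, 0.134 and 0.0989). Of the uptake genes 8 were called lower in place of 7. Over all 12148 tested genes the block gave 2772 higher and 2636 lower, against 3016 and 2784 without it. With 3 libraries per group and 16 control reads for SOAT2, counting error limits the size of its change.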
